A study of Rattus norvegicus with 60 samples.

Results

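Acute phase plasma proteins are the secreted liver proteins whose blood levels move when tissue is injured or infected. The 10 genes described here encode α2-macroglobulin (A2m), the pentraxins serum amyloid P component (Apcs) and C-reactive protein (Crp), the lipopolysaccharide-binding protein (Lbp), haptoglobin (Hp), ceruloplasmin (Cp), the 3 fibrinogen chains (Fga, Fgb, Fgg) and α1-acid glycoprotein (Orm1). Their probe sets are those whose annotation carries exactly 1 of these symbols, and where a gene had several, the one brightest on average across all 60 arrays stood for it. All 10 genes were found, of 14217 on the array, through 15 of 31042 probe sets. Fga, Fgb and Cp had more than 1. The members were chosen by name and not by a cutoff on a measured value, but with earlier results of these data known.

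As background, hepatocytes make these proteins at a basal rate and change it when interleukin-6 and interleukin-1-type cytokines reach the liver. Interleukin-6 acts through its receptor (Il6r), the shared subunit gp130 (Il6st) and the transcription factor STAT3, while interleukin-1-type signals act through NF-κB, and C/EBP factors and glucocorticoids add to both. In the rat, A2m and Orm1 are the strongly inducible members and A2m is scarcely made in healthy adult liver, whereas Crp and haptoglobin are abundant in rat plasma without inflammation. Proteins that rise in plasma during inflammation are called positive acute phase proteins, and those that fall, such as albumin, negative ones.

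The study dosed male F344/N rats, an inbred strain for which no transgene or deletion is labelled in any group, with DMPT (N,N-dimethyl-p-toluidine) or with p-toluidine. The compounds are aromatic amines that share the p-toluidine ring, and DMPT carries methyl groups on the nitrogen where p-toluidine carries hydrogens. For each chemical there were 5 arrays at each of 1, 6, 20, 60 and 120 mg/kg per day and 5 of its own vehicle group, 12 groups in all. Corn oil was the vehicle in every group, with 2.5 ml/kg gavaged daily for 5 days to rats aged 5 to 6 weeks at the start and housed 2 per cage. The protocol text lists the doses for DMPT, and those of the p-toluidine arrays were read from their sample labels. From the left lateral lobe of the liver, 100 ng of total RNA was amplified for a one-colour Affymetrix 3′ expression array. Nothing in the labels ties an array to an animal or cage, so a p-value here reflects only how these samples spread, which may be technical.

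The stretches upstream of Apcs, Fga and Fgb are shown because Apcs fell in the most dose groups and the fibrinogen genes are neighbours on chromosome 2. Each is the 250 bases before the gene's start, 5′ to 3′ on the gene's own strand, from RefSeq's annotation of rat assembly GRCr8. They lie at chr13:87906509-87906758 (minus strand) for Apcs, chr2:170671919-170672168 (plus strand) for Fga and chr2:170700876-170701125 (minus strand) for Fgb. Capitals mark matches to the letters TTCNNNGAA of a STAT element or TTNNGNAA of a C/EBP element, searched on both strands.
Apcs: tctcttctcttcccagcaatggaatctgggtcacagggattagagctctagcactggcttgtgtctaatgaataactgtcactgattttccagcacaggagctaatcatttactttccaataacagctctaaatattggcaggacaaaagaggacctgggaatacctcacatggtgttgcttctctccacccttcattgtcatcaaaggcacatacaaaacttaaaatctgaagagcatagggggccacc
Fga: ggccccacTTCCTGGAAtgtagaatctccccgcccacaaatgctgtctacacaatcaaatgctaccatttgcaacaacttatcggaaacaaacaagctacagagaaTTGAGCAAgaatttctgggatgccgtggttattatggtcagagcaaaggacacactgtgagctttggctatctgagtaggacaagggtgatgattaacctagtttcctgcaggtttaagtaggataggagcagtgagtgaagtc
Fgb: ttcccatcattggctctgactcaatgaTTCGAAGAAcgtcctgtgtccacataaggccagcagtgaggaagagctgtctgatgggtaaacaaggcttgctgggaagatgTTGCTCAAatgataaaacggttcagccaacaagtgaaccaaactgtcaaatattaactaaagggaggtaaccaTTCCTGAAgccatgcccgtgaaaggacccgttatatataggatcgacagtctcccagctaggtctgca

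Both Fga and Fgb held 1 STAT match, found in 7.67% of 33469 upstream windows of this length, and at least 1 C/EBP match, found in 37.2% of them. In Fga the STAT letters TTCCTGGAA lay 242 to 234 bases before the start and the C/EBP letters TTGAGCAA 144 to 137 bases before it. In Fgb the STAT letters TTCGAAGAA lay 223 to 215 bases before the start, with C/EBP letters at 141 to 134 and at 68 to 61 bases. A second RefSeq start of Fga, whose window begins further downstream, held the C/EBP match and not the STAT match. Neither motif was in the windows of Apcs and Fgg. The windows of Fgg and Cp were taken before a start that lies downstream of the gene's outermost annotated start, so they overlap the annotated gene. Windows were at hand for 7 of the 10 genes, and Crp, Orm1 and Cp each held a C/EBP match as well. None of the 7 held an NF-κB motif (4.36% of windows) or an HNF1 motif (0.00299% of windows), and the TATA letters TATAAA (12.9% of windows) were in those of Fgg, Orm1 and Cp. A match of letters does not show binding.

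All values are log2 expression values per probe set, and each change is dose minus own vehicle on that scale. Array medians ran from 3.54 to 3.62 for DMPT and from 2.73 to 2.81 for p-toluidine, so the array sets appear to have been normalized separately and levels were not compared across the chemicals. On the DMPT side, 5 arrays had a narrower spread of values than the others: replicate 3 at 6 mg/kg, replicates 3 and 5 at 60 mg/kg, and replicates 2 and 5 at 120 mg/kg. The tissue label was borne out by hepatocyte markers, with albumin averaging 13.8 on the DMPT arrays and 13.7 on the p-toluidine arrays, while the 6 neutrophil markers averaged between 1.26 and 3.51. A lower value in whole liver can come from fewer hepatocytes or from less RNA per hepatocyte, which these arrays cannot tell apart. The probe sets of Hp, Cp, Crp, Apcs, the fibrinogen chains and Orm1 were among the brightest on the array, at percentile 98.6 or above, whereas that of A2m stood at percentile 77.8 on the DMPT arrays and 78.8 on the p-toluidine arrays. Brightness does not compare transcript amounts between genes, and whether signals near the top of the scale are compressed was not tested.

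A2m, the broad protease inhibitor of plasma, had the largest decrease of the 10 genes with both chemicals. Its 5 arrays at 120 mg/kg of DMPT were at 4.65, 4.81, 4.96, 4.07 and 3.87, against 6.00, 5.31, 7.22, 6.58 and 5.75 in DMPT vehicle. All dosed arrays lay below all vehicle arrays. The change was −1.70 ± 0.34 (SE), or 3.25-fold lower, with a 95% interval of −2.40 to −1.0 (limma, adjusted p = 0.00113). With 120 mg/kg of p-toluidine A2m was at 4.17, 3.12, 3.25, 2.89 and 4.85, against 5.11, 5.03, 5.31, 5.18 and 7.54 in p-toluidine vehicle. The groups again did not overlap, and vehicle replicate 5 stood far above the other vehicle arrays. The change was −1.98 ± 0.43, or 3.94-fold lower (95% interval −2.85 to −1.10, limma adjusted p = 0.00196). Without vehicle replicate 5 it was −1.50 with an adjusted p of 0.00886.

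Below 60 mg/kg, A2m did not pass the test in either chemical. Its change at 1, 6 and 20 mg/kg was 0.05, −0.21 and −0.08 with DMPT, and 0.28, −0.10 and −0.48 with p-toluidine. The arrays at 60 mg/kg of DMPT were at 5.89, 4.47, 4.68, 4.56 and 5.07, and 4 of 5 lay below the lowest vehicle array. This change of −1.24 ± 0.34 passed (limma, adjusted p = 0.0271). Those at 60 mg/kg of p-toluidine were at 3.93, 3.84, 4.72, 4.84 and 4.83, all below the lowest vehicle array, with a change of −1.20 ± 0.43 that did not pass (limma, adjusted p = 0.119). A2m was also the member that varied most between arrays of a group, with a pooled SD of 0.61 on the DMPT arrays and 0.77 on the p-toluidine arrays. The call at 60 mg/kg of DMPT was lost without vehicle replicate 3 (adjusted p = 0.107) or 4 (0.0820), without 60 mg/kg replicate 2 (0.0672), 3 (0.0695) or 4 (0.0670), without the 5 narrow arrays (0.121), and with robust moderation (0.0601). The setting named robust moderation, here and below, also fitted an intensity trend to the spread. The change at 120 mg/kg of DMPT without the narrow arrays was −1.61 (adjusted p = 0.0169).

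Apcs, a pentraxin that binds amyloid fibrils and nuclear debris, had the most regular decrease over dose. With DMPT its mean was 11.55 ± 0.09 (SD, n = 5 in each group) in vehicle, 11.50 ± 0.06 at 1, 11.37 ± 0.14 at 6, 11.28 ± 0.09 at 20, 11.09 ± 0.11 at 60 and 10.90 ± 0.11 at 120 mg/kg. The arrays at 120 mg/kg were at 10.89, 10.74, 10.94, 11.04 and 10.88, against 11.61, 11.46, 11.61, 11.62 and 11.44 in vehicle. That change was −0.65 ± 0.07, or −36.2% (limma, adjusted p = 2.14e-07). With 60 mg/kg Apcs changed by −0.46 ± 0.07 (limma, adjusted p = 0.000144). At 20 mg/kg the arrays were at 11.15, 11.34, 11.26, 11.26 and 11.37, all below the lowest vehicle array, with a change of −0.27 ± 0.07 (limma, adjusted p = 0.0382). That lowest call was lost without vehicle replicate 1 (adjusted p = 0.0922), 3 (0.0961) or 4 (0.0893), without 20 mg/kg replicate 1 (0.104), 2 (0.0543), 3 (0.0751) or 4 (0.0839), with arrays centred on their medians (0.0523), and with the beta-actin 3′ minus 5′ difference as a covariate (0.166).

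With p-toluidine the mean of Apcs was 11.02 ± 0.09 in vehicle, 10.98 ± 0.14 at 1, 10.86 ± 0.15 at 6, 10.70 ± 0.11 at 20, 10.32 ± 0.25 at 60 and 9.98 ± 0.25 at 120 mg/kg. Top-dose arrays were at 9.87, 10.13, 10.31, 9.93 and 9.66, against 11.002, 10.92, 11.02, 10.999 and 11.17 in vehicle. The change of −1.04 ± 0.11 was 2.06-fold lower (limma, adjusted p = 2.98e-08). The change at 60 mg/kg was −0.70 ± 0.11 (limma, adjusted p = 7.45e-05). At 20 mg/kg it was −0.32 ± 0.11 and did not pass (limma, adjusted p = 0.176), although all 5 arrays, from 10.56 to 10.83, lay below the lowest vehicle array. Per rank of the dose, Apcs changed by −0.13 ± 0.01 with DMPT (limma trend, adjusted p = 2.87e-09) and by −0.21 ± 0.02 with p-toluidine (adjusted p = 4.33e-10). A2m changed by −0.35 ± 0.06 per rank with DMPT (adjusted p = 5.02e-05) and by −0.42 ± 0.07 with p-toluidine (adjusted p = 8.65e-05).

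**Figure D1:**
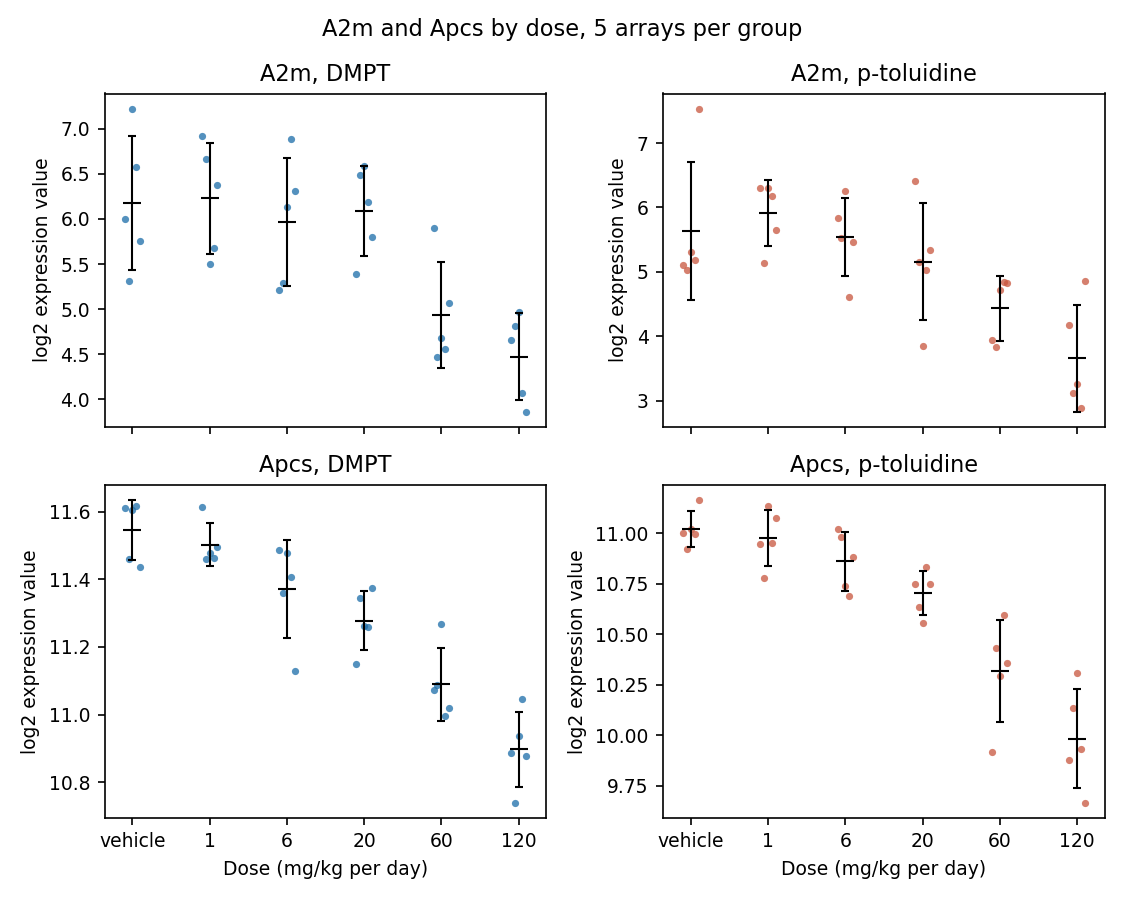
Log2 expression values of A2m (top) and Apcs (bottom) on every array, against dose in mg/kg per day, for DMPT (left) and p-toluidine (right); points are arrays, horizontal marks the means of 5 arrays and bars the SD, and the vertical scales differ between panels. At 120 mg/kg A2m lay between 3.87 and 4.96 with DMPT, against 5.31 to 7.22 in vehicle, and Apcs between 10.74 and 11.04, against 11.44 to 11.62.

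Crp, the other pentraxin of the group and a ligand of damaged membranes and bacterial surfaces, was lower at the top dose by amounts just outside the threshold. Its arrays with 120 mg/kg of DMPT were at 11.15, 10.98, 11.29, 11.13 and 11.17, against 11.67, 11.61, 11.57, 11.38 and 11.40 in vehicle, with no overlap. Its change was −0.38 ± 0.13 (limma, adjusted p = 0.0520). Those with 120 mg/kg of p-toluidine were at 10.60, 11.16, 11.34, 11.27 and 10.86, against 11.52, 11.37, 11.38, 11.43 and 11.10 in vehicle, and 2 dosed arrays lay below all vehicle arrays. This change was −0.31 ± 0.10 (limma, adjusted p = 0.0515). Several settings moved these values under the threshold, for example quantile normalization over the 60 arrays (adjusted p = 0.0365 for DMPT and 0.0238 for p-toluidine). Leaving out single arrays did so too: DMPT 120 mg/kg replicate 3 (0.0467), p-toluidine vehicle replicate 5 (0.0189), and p-toluidine 120 mg/kg replicates 2 (0.0495), 3 (0.0150) and 4 (0.0286). Over all doses the trend of Crp passed with p-toluidine, at −0.061 ± 0.018 per rank (limma, adjusted p = 0.0164, 0.0571 without 120 mg/kg replicate 1, and 0.0966 with the beta-actin covariate), and not with DMPT, at −0.049 ± 0.022 (adjusted p = 0.131).

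Lbp, which hands bacterial lipopolysaccharide to the receptor CD14, had values of 6.97, 7.14, 7.14, 7.35 and 7.42 at 120 mg/kg of p-toluidine, against 7.39, 7.49, 7.43, 8.15 and 7.66 in vehicle. Of the dosed arrays 4 lay below all vehicle arrays, and the change of −0.42 ± 0.16 did not pass (limma, adjusted p = 0.0873). With the beta-actin covariate it was −0.55 and passed (adjusted p = 0.0367). Its trend over p-toluidine doses passed, at −0.093 ± 0.027 per rank (limma, adjusted p = 0.0149, and 0.0541 without vehicle replicate 4). Lbp changed by −0.11 ± 0.11 with 120 mg/kg of DMPT (adjusted p = 0.669).

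Among the scavengers of metal and haemoglobin, haptoglobin (Hp), which captures free haemoglobin, changed by the smallest called amount. Its arrays with 120 mg/kg of p-toluidine were at 12.33, 12.33, 12.46, 12.45 and 12.33, against 12.46, 12.58, 12.51, 12.65 and 12.54 in vehicle. The arrays barely separated, and the change was −0.17 ± 0.05 (limma, adjusted p = 0.0353). That call was lost without vehicle replicate 2 (adjusted p = 0.0743), 4 (0.115) or 5 (0.0510), without 120 mg/kg replicate 1 (0.0825), 2 (0.0844) or 5 (0.0838), in a fit of only the 2 groups (0.156), and with quantile normalization (0.293), which also ended the call of its p-toluidine trend (−0.034 ± 0.009 per rank, adjusted p = 0.00679, against 0.265). Hp with 120 mg/kg of DMPT was at 12.61 to 12.74, against 12.71 to 12.77 in vehicle, a change of −0.07 ± 0.05 (adjusted p = 0.467). Ceruloplasmin (Cp), the copper ferroxidase of plasma, did not pass at any dose, with changes at 120 mg/kg of −0.04 ± 0.09 for DMPT (95% interval −0.21 to 0.14) and −0.14 ± 0.11 for p-toluidine (−0.35 to 0.08). With the beta-actin covariate these became 0.05 and 0.0090. Of its other probe sets, 1 passed at 120 mg/kg of DMPT, at −0.28 ± 0.09 (limma, adjusted p = 0.0321), and not with p-toluidine, at −0.23 ± 0.09 (0.116). Its dosed arrays lay below all vehicle arrays in both cases. That dimmer probe set also passed over the dose ranks, at −0.060 ± 0.015 per rank with DMPT (limma trend, adjusted p = 0.00353) and −0.045 ± 0.016 with p-toluidine (0.0476). The remaining Cp probe set was not called at 120 mg/kg or over the ranks.

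The fibrinogen chains, which together form the clotting protein that thrombin cleaves, were lower at 120 mg/kg of either chemical by 0.07 to 0.20 on the log2 scale. Fga, the α chain, was at 12.41, 12.56, 12.42, 12.58 and 12.47 with 120 mg/kg of DMPT, against 12.67, 12.62, 12.75, 12.60 and 12.64 in vehicle. The groups did not overlap, and the change was −0.17 ± 0.06 (limma, adjusted p = 0.0701). It passed with median centring (0.0420), with dim probe sets left out (0.0307), with array weights (0.0449), with robust moderation (0.0166) and as the mean of its probe sets (0.0251). With 120 mg/kg of p-toluidine Fga was at 12.17, 12.23, 12.30, 12.25 and 12.21, against 12.43, 12.39, 12.46, 12.40 and 12.50 in vehicle. That change of −0.20 ± 0.05 passed (limma, adjusted p = 0.00930, and 0.0659 in a fit of only the 2 groups). A second, dimmer probe set of Fga passed with both, at −0.23 ± 0.08 for DMPT (limma, adjusted p = 0.0471) and −0.35 ± 0.08 for p-toluidine (adjusted p = 0.00175). The trend of Fga passed with DMPT (−0.029 ± 0.010 per rank, adjusted p = 0.0398) and with p-toluidine (−0.029 ± 0.009 per rank, adjusted p = 0.0219). Leaving out 1 array ended the DMPT call in 12 of 30 fits (adjusted p as high as 0.0911). These were vehicle replicates 1, 3 and 5, 1 mg/kg replicates 1, 2 and 5, 60 mg/kg replicates 1, 4 and 5, and 120 mg/kg replicates 1, 3 and 5. The p-toluidine call was lost without 120 mg/kg replicate 1 (0.0501), and the beta-actin covariate ended both (0.188 for DMPT and 0.0798 for p-toluidine), as quantile normalization did for DMPT (0.116).

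Fgb, the β chain, lay at 12.19, 12.32, 12.39, 12.32 and 12.37 with 120 mg/kg of DMPT, against 12.49, 12.44, 12.56, 12.41 and 12.47 in vehicle. Its p-toluidine arrays at 120 mg/kg lay at 11.95, 12.00, 12.04, 12.01 and 12.04, against 12.15, 12.15, 12.20, 12.24 and 12.10 in vehicle. Neither pair of groups overlapped, and neither change passed, at −0.16 ± 0.05 for DMPT (limma, adjusted p = 0.0692) and −0.16 ± 0.05 for p-toluidine (adjusted p = 0.0595, and 0.0472 without vehicle replicate 5). Fgb passed with both chemicals when dim probe sets were left out (0.0274 for DMPT, 0.0249 for p-toluidine), with array weights (0.0339 and 0.0480) and with robust moderation (0.0139 and 0.0231), and with DMPT under median centring (0.0424). Its other probe sets were near the bottom of the scale, 1.19 and 2.37 on average, and the mean over all its probe sets gave 0.014 for DMPT. The one at 2.37 was called higher over the DMPT dose ranks, at 0.059 ± 0.015 per rank (limma trend, adjusted p = 0.00516). Fgg, the γ chain, changed by −0.10 ± 0.05 with DMPT (95% interval −0.20 to 0.0008, adjusted p = 0.234) and by −0.07 ± 0.05 with p-toluidine (−0.17 to 0.03, adjusted p = 0.439). The chains tended to rank the arrays of a group alike: the same array was highest for all 3 chains in 7 of 12 groups and lowest in 6 of 12, which the chains share with any effect of the array itself.

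Orm1, a binder of basic drugs and the strongly inducible member beside A2m, did not pass at any dose on all arrays. Its mean at 120 mg/kg of DMPT was 10.20 ± 0.22, against 10.12 ± 0.26 in vehicle, a change of 0.07 ± 0.16 (95% interval −0.26 to 0.40). The mean at 120 mg/kg of p-toluidine was 9.57 ± 0.36, against 9.55 ± 0.25 in vehicle, a change of 0.02 ± 0.20 (−0.39 to 0.43). Its arrays at 60 mg/kg of p-toluidine were at 9.61, 8.92, 10.45, 10.25 and 10.27, against 9.39, 9.55, 9.87, 9.70 and 9.24 in vehicle. Of the dosed arrays 3 lay above all vehicle arrays and replicate 2 below them, and the change was 0.35 ± 0.20 (limma, adjusted p = 0.423). Without replicate 2 it was 0.60 and passed as an increase (adjusted p = 0.0329), so 1 array decides that call.

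**Figure D2:**
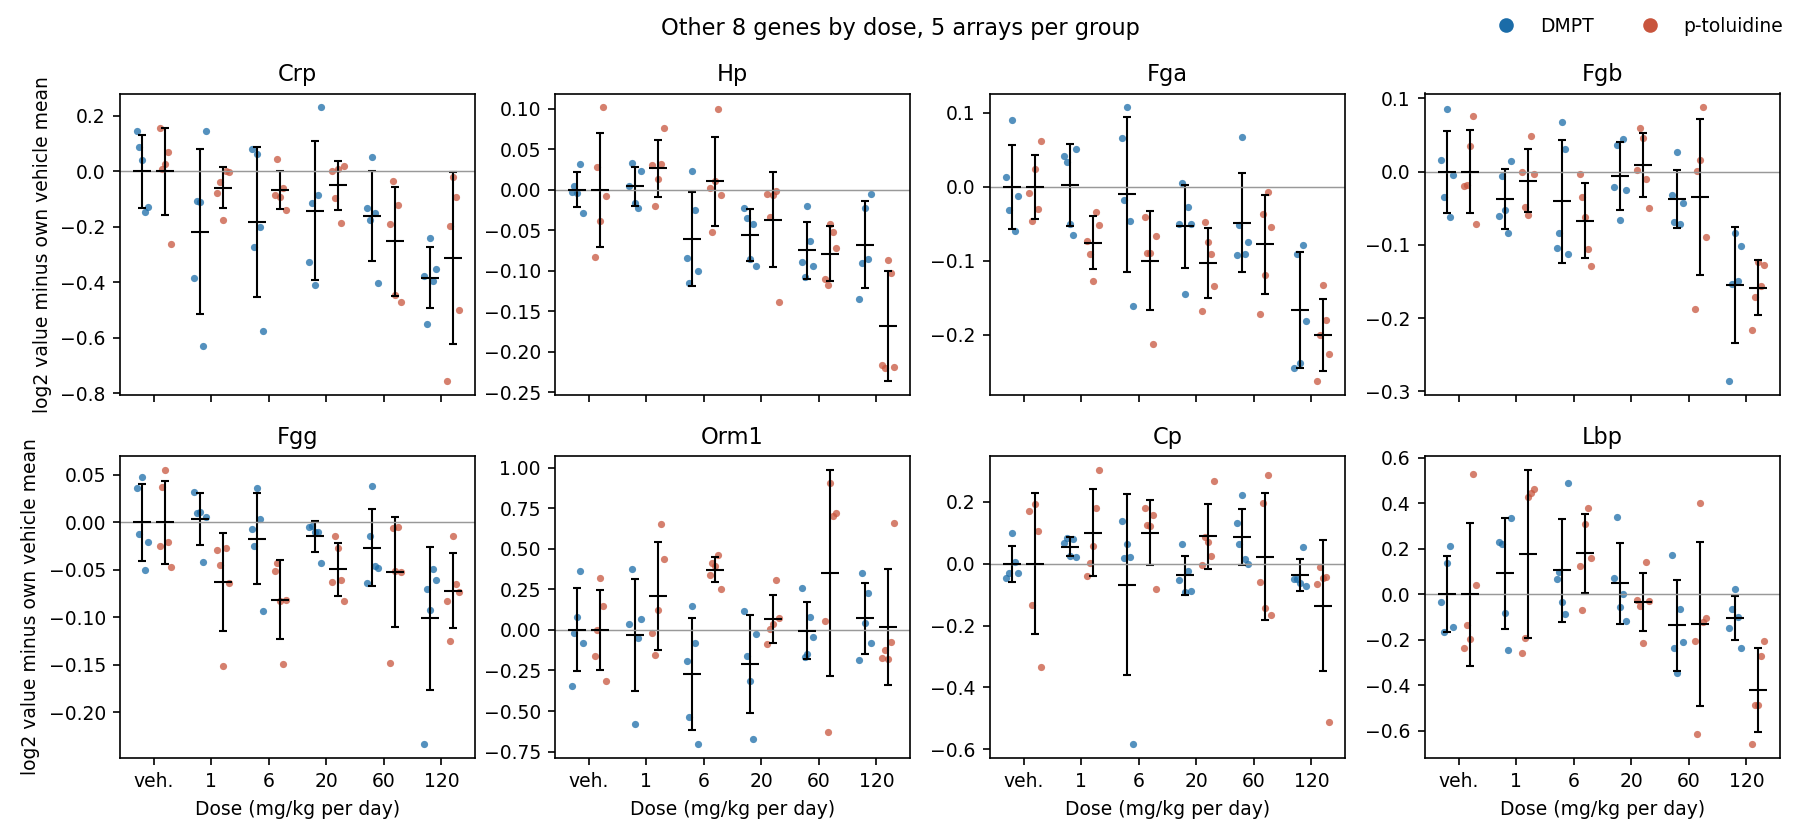
Log2 value of each array minus the mean of its own vehicle group, against dose in mg/kg per day, for the 8 genes other than A2m and Apcs; DMPT is blue and left at each dose, p-toluidine red and right, horizontal marks are means of 5 arrays and bars the SD, and the vertical scales differ between panels. Fga and Fgb at 120 mg/kg were below all arrays of their vehicle groups with both chemicals, while Orm1 was spread around 0.

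Counted over the 10 genes, DMPT called 0 at 1 mg/kg (limma, 0 at an unadjusted p under 0.05 and 0% of all probe sets called) and 0 at 6 mg/kg (1 unadjusted, 0.168% of all probe sets called). At 20 mg/kg 1 fell, Apcs, beside 1.05% of all probe sets called lower. At 60 mg/kg A2m and Apcs fell, 2 of 10, beside 3.26% called lower, and at 120 mg/kg the same 2 genes fell, beside 5.53%. That last count was 5 with arrays centred on their medians, with probe sets below the median level left out, or with array weights, the additions being Crp, Fga and Fgb. Over the dose ranks Fga joined them, making 3 of 10 beside 9.09%. With robust moderation Fgb also passed over the ranks (adjusted p = 0.0377). With p-toluidine 0 were called at 1 mg/kg (0 unadjusted, 0% of all probe sets called), at 6 mg/kg (0 unadjusted, 0%) and at 20 mg/kg (1 unadjusted, 0.786%). At 60 mg/kg 1 fell, Apcs, beside 2.39% called lower. At 120 mg/kg 4 fell, A2m, Apcs, Hp and Fga, beside 5.07%, and 2 in a fit of only the 2 groups. Crp and Fgb joined these 4 with probe sets below the median level left out (limma, adjusted p = 0.0320 and 0.0249). They did so with robust moderation too (0.0409 and 0.0231). The trend called 6 lower, A2m, Apcs, Crp, Hp, Fga and Lbp, beside 7.24%. All of these calls were decreases. Among the probe sets that stand for the genes, an increase was called for 1 member, Orm1 at 60 mg/kg of p-toluidine, when replicate 2 of that group was left out. A dim probe set of Fgb that does not stand for the gene was called higher in the DMPT trend on all arrays.

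At 120 mg/kg 9 of 10 genes had a negative change with either chemical, Orm1 being the exception. The median change of the 10 was −0.13 with DMPT, where that of all 14217 genes was −0.0014, and −0.18 with p-toluidine, where it was −0.0025. The dosed arrays lay wholly below the vehicle arrays for 5 genes with 120 mg/kg of DMPT (A2m, Apcs, Crp, Fga and Fgb), as did 4.82% of all probe sets, and for 5 with 120 mg/kg of p-toluidine (A2m, Apcs, Hp, Fga and Fgb), as did 3.89%. At 20 mg/kg this held for Apcs with DMPT, beside 2.68% of all probe sets, and for Apcs and Fga with p-toluidine, beside 1.2%. At 60 mg/kg it held for Apcs with DMPT, beside 3.24%, and for A2m and Apcs with p-toluidine, beside 2.13%.

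**Figure D3:**
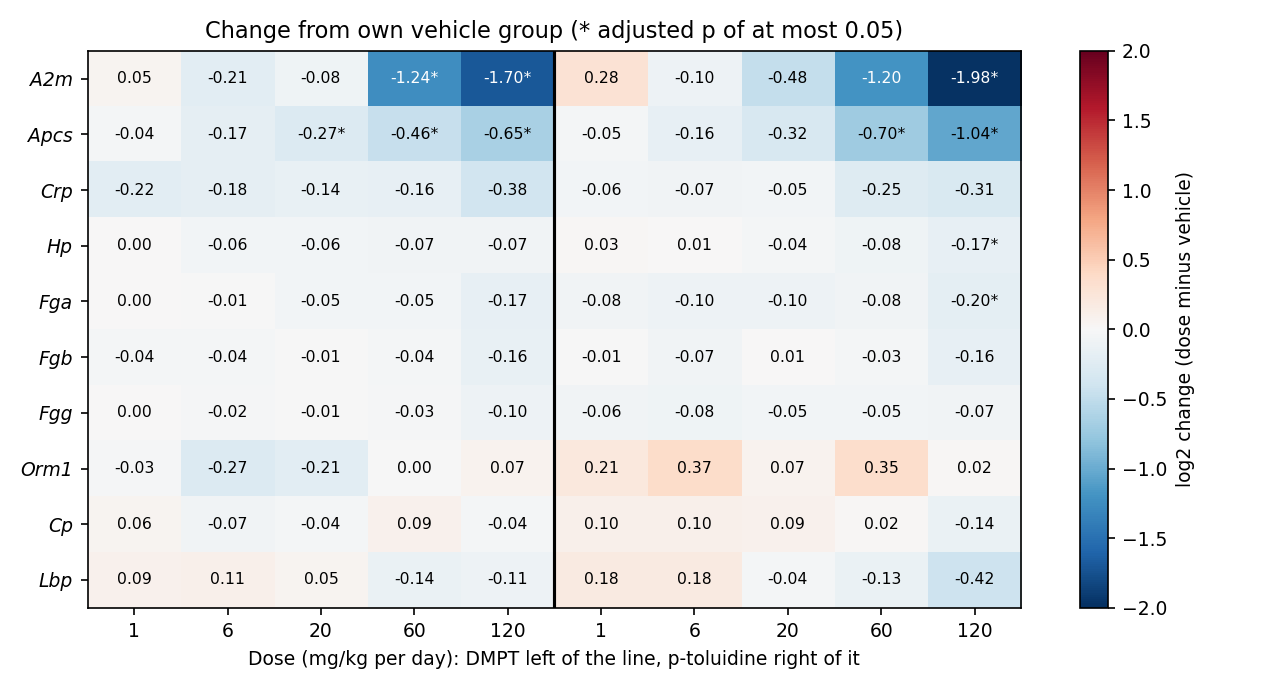
Log2 change (dose minus own vehicle) of the 10 genes, in rows, at each dose in mg/kg per day, in columns, with DMPT left of the line and p-toluidine right of it; colour and printed number give the change and an asterisk an adjusted p of at most 0.05. The asterisks lie in the rows of A2m, Apcs, Hp and Fga, and the largest decreases, −1.70 and −1.98, are those of A2m at 120 mg/kg.

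No step between neighbouring doses passed the test for any member. Each dose was set against the next lower one, and 0 of 10 genes passed in each of the 10 steps (limma, unadjusted p under 0.05 for 0 to 3 genes a step). From the lowest step upwards, 0, 0, 0.0161, 0.11 and 0.174% of all probe sets were called with DMPT, and 0, 0, 0.00322, 0.106 and 0.838% with p-toluidine. The largest step of A2m was from 20 to 60 mg/kg of DMPT, at −1.16 ± 0.34 (adjusted p = 0.161). The largest step of Apcs was from 20 to 60 mg/kg of p-toluidine, at −0.39 ± 0.11 (adjusted p = 0.192). The arrays of neighbouring doses were fully apart in 1 case, Fgb at 120 mg/kg of DMPT, at 12.32 ± 0.08, against 12.43 ± 0.04 at 60 mg/kg (adjusted p = 0.578). How many of all probe sets were fully apart between neighbouring doses was not counted, so that case is given only as a description.

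Matched doses of DMPT and p-toluidine were compared through their responses, each against its own vehicle, in 50 pairs of gene and dose. The difference passed for 0 of 10 genes at 1, 6, 20, 60 and 120 mg/kg (limma, unadjusted p under 0.05 for 0, 1, 0, 0 and 1 gene, and 0, 0, 0, 0 and 0.00644% of all probe sets called). The response of Apcs to 120 mg/kg was smaller with DMPT by 0.39 ± 0.13 (95% interval 0.13 to 0.65, unadjusted p = 0.00356, adjusted p = 0.401). The other gene with an unadjusted p under 0.05 was Orm1 at 6 mg/kg, where DMPT minus p-toluidine was −0.64 ± 0.27 (unadjusted p = 0.0197, adjusted p = 0.760). For A2m at 120 mg/kg the difference was 0.28 ± 0.58 (95% interval −0.89 to 1.44). Without p-toluidine vehicle replicate 5 that difference was −0.20. For the fibrinogen chains the intervals at 120 mg/kg were narrow, −0.11 to 0.18 for Fga, −0.13 to 0.14 for Fgb and −0.15 to 0.09 for Fgg. No difference between the responses to DMPT and to p-toluidine passed the test in these 10 genes. With 0.00644% of all probe sets called at 120 mg/kg, not passing does not show that the responses were equal. The role of the methyl groups was not tested.

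**Figure D4:**
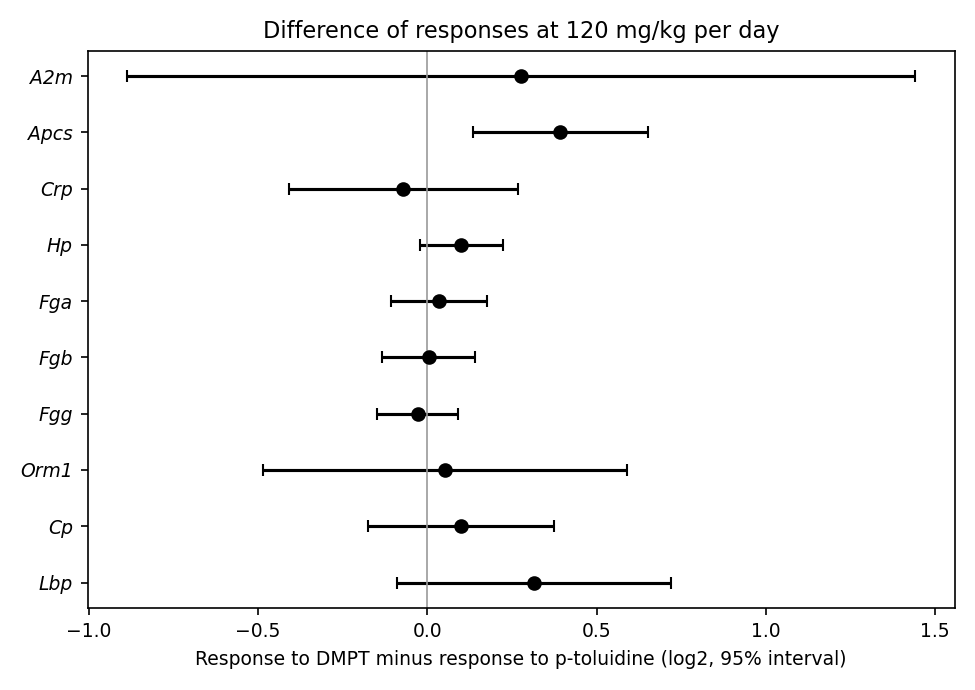
Response to DMPT minus response to p-toluidine at 120 mg/kg per day on the log2 scale (horizontal axis) for each of the 10 genes (rows); points are estimates from the fit of all 60 arrays and bars 95% intervals. The interval of Apcs, 0.13 to 0.65, leaves out 0, and that of A2m, −0.89 to 1.44, is the widest.

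Other hepatocyte genes of the acute phase and of clotting were examined beside the 10, in lists chosen with earlier results of these data known. Of 19 other positive acute phase genes measured, 12 fell and 1 rose at 120 mg/kg of DMPT (9 fell without the 5 narrow arrays), with a median change of −0.21, and 11 fell and 0 rose with p-toluidine, with a median of −0.23. Among all 14217 genes 7.43% fell with DMPT and 6.91% with p-toluidine. Those that fell with both numbered 8, which is 66.7% of the DMPT ones and 72.7% of the p-toluidine ones. Of these, Itih3 and Plg lost their DMPT call in a fit of only the 2 groups (limma, adjusted p = 0.152 and 0.121). Serpina1 (0.0503) and Serping1 (0.0539), which were called lower with DMPT alone, did so too, and Plg lost its p-toluidine call there (0.0589). C5, which fell with both chemicals, lost its DMPT call without the narrow arrays (0.0504) and with the beta-actin covariate (0.0616). The DMPT calls of Itih3 and Plg were also lost in several fits without 1 array, for example vehicle replicate 3 (0.127 and 0.0837). Among the p-toluidine decreases, C4bpa (limma, adjusted p = 0.0605) and Vtn (0.0827) lost their calls in a fit of only the 2 groups. Vtn also lost it with quantile normalization (0.0681), without vehicle replicate 2 (0.0573) and without 120 mg/kg replicate 5 (0.0586). Fgl1, a fibrinogen-like protein of hepatocytes, changed by −0.49 ± 0.09 with DMPT and −1.02 ± 0.09 with p-toluidine. Itih4, an inter-α-trypsin inhibitor heavy chain, changed by −0.34 ± 0.05 and −0.55 ± 0.07 in that order, and Serpina3n, a serine protease inhibitor, by −0.35 ± 0.09 and −0.58 ± 0.12. Hepcidin (Hamp), the iron-regulating peptide induced by interleukin-6, changed by −2.67 ± 0.45 with DMPT (limma, adjusted p = 0.000121) and by −0.15 ± 0.55 with p-toluidine (adjusted p = 0.920), and this difference between the chemicals did not pass (−2.52 ± 0.75, adjusted p = 0.332). The 1 rise was Cd14, the lipopolysaccharide co-receptor, at 0.59 ± 0.17 with DMPT (adjusted p = 0.0230). That call was lost with the beta-actin covariate (0.182) and without vehicle replicate 1 (0.0775), 3 (0.0643) or 5 (0.0509) or 120 mg/kg replicate 2 (0.0507).

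Of 8 genes of negative acute phase proteins measured, 0 rose and 2 fell with each chemical, and they were the same genes. Mug1, a murinoglobulin related to A2m, changed by −0.66 ± 0.13 with DMPT and −1.12 ± 0.16 with p-toluidine, and Serpina6, the corticosteroid-binding globulin, by −0.38 ± 0.09 and −0.66 ± 0.10. Of 10 coagulation and fibrinolysis genes 7 fell with each chemical and 0 rose, 6 of them shared, with medians of −0.24 for DMPT and −0.30 for p-toluidine. In a fit of only the 2 groups, F2 (limma, adjusted p = 0.0690) and Serpinc1 (0.0669) lost their DMPT call. That fit also ended the p-toluidine calls of F2 (0.0769) and F9 (0.120). Those 2 calls were lost as well in some fits without 1 array (up to 0.0823 for F2 and 0.129 for F9). Serpind1 (heparin cofactor), an inhibitor of thrombin, changed by −0.52 ± 0.06 with DMPT and −0.60 ± 0.08 with p-toluidine, and Proc, the anticoagulant protein C, by −0.37 ± 0.07 and −0.39 ± 0.08.

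**Figure D5:**
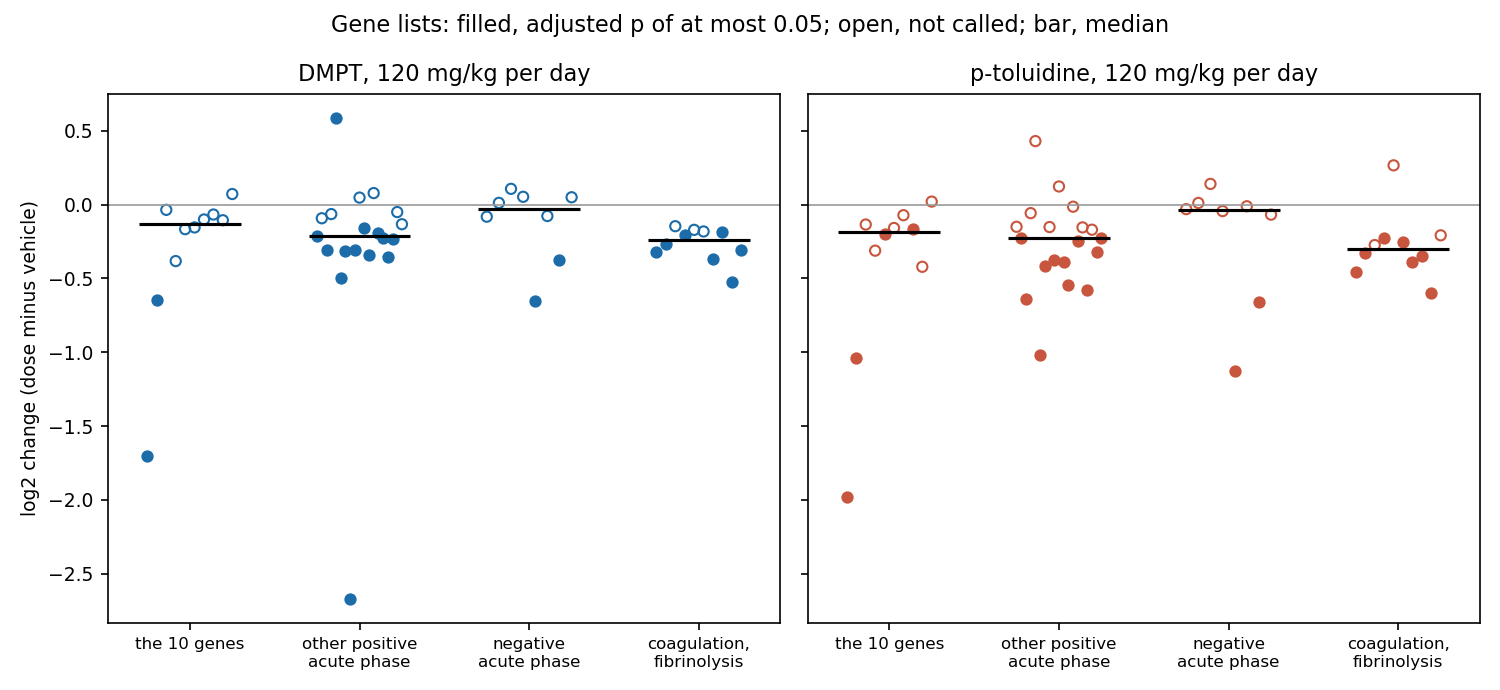
Log2 change (dose minus own vehicle) at 120 mg/kg per day for the genes of 4 lists, DMPT left and p-toluidine right; each point is a gene, filled where its adjusted p was at most 0.05, and bars are list medians. The coagulation list has 7 filled points with each chemical, all below 0, and the lowest point of the DMPT panel is Hamp at −2.67.

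Liver transcripts of the cytokines, receptors and factors that act on these genes were examined at 120 mg/kg, and signalling itself was not measured. Beside them, 7.43% of all 14217 genes fell and 5.29% rose with DMPT. With p-toluidine 6.91% fell and 7.84% rose. Of 7 cytokine genes Il1b alone passed, lower with DMPT at −0.39 ± 0.12 (limma, adjusted p = 0.0414, and 0.0645 in a fit of only the 2 groups), and 0 passed with p-toluidine (adjusted p of Il1b = 0.246). Among 6 receptor genes Tnfrsf1a, a receptor of tumour necrosis factor, fell with both, by 0.54 with DMPT and by 0.39 with p-toluidine. Il6r was at −0.12 ± 0.14 with DMPT and −0.14 ± 0.17 with p-toluidine, and Il6st at 0.0008 ± 0.11 and 0.08 ± 0.12, none passing. Stat3 rose with p-toluidine, where it was 6.28 ± 0.19 at 120 mg/kg, against 5.67 ± 0.18 in vehicle (0.61 ± 0.15, limma adjusted p = 0.00521). With DMPT it was at −0.11 ± 0.16, and the difference between the chemicals did not pass (−0.72 ± 0.22, adjusted p = 0.355). Socs3, a feedback inhibitor and rapid target of STAT3, was at 0.025 ± 0.11 with DMPT and −0.08 ± 0.09 with p-toluidine, without passing. Nor did Cebpb (−0.14 ± 0.16 with DMPT, −0.19 ± 0.18 with p-toluidine) or Cebpd (0.20 ± 0.12 and 0.14 ± 0.15). Of the 14 transducers and factors measured, Hnf4a (−0.52 ± 0.09), a master regulator of hepatocyte genes, and Irak1 (−0.29 ± 0.06), a kinase of interleukin-1 signalling, fell with DMPT, and the glucocorticoid receptor Nr3c1 (−0.36 ± 0.10) fell with p-toluidine. Of 8 feedback inhibitors and early targets, the NF-κB inhibitor gene Nfkbia fell with DMPT (−0.38 ± 0.11, limma adjusted p = 0.0227, and 0.124 without the narrow arrays), and 0 were called with p-toluidine. Some of these calls rested on single arrays. That of Il1b was lost without vehicle replicates 2 to 5 or 120 mg/kg replicates 2, 4 and 5, each left out in turn (adjusted p of up to 0.152), and without the narrow arrays (0.154). That of Nfkbia was lost without vehicle replicate 3 (0.0593), 4 (0.0612) or 5 (0.0516) or 120 mg/kg replicate 2 (0.0556) or 5 (0.0526), and that of Nr3c1 was lost without vehicle replicate 3 (0.0645) or 4 (0.0692), without 120 mg/kg replicate 3 (0.0514), and with the beta-actin covariate (0.0913).

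The genes whose changes over the 10 dose groups lay nearest to those of A2m, among 13980 genes with an established symbol, were Inhba, Sez6, Avpr1a, Olr59 and Sult1c3. Nearness was the root mean square of the differences between their log2 changes and those of A2m, and it was 0.25, 0.30, 0.31, 0.31 and 0.35 in that order, where the changes of A2m themselves had a root mean square of 1.01. Inhba, which encodes an activin subunit, changed by −1.50 at 120 mg/kg of DMPT and −1.73 at 120 mg/kg of p-toluidine, and Avpr1a, a vasopressin receptor, by −1.85 and −1.94. Groups of a chemical share a vehicle group, and likeness of pattern is given as a description.

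Markers of other cells and of RNA quality are given beside these decreases, and their part in the results was not tested unless stated. With 120 mg/kg of DMPT 0 of 8 Kupffer cell and macrophage markers were called, and at 120 mg/kg of p-toluidine 1 fell, Cd5l at −0.49 ± 0.13, while all 8 had negative changes with a median of −0.20. The summed level of that list ran from 9.56 to 9.68 on the p-toluidine arrays at 120 mg/kg, against 9.74 to 9.92 in vehicle. Neutrophil markers stayed near the bottom of the scale with 0 of 6 called with either chemical, while of 7 lymphocyte markers 0 fell and 1 rose with DMPT, Cd3d at 0.25 ± 0.08 (adjusted p = 0.0371, list median 0.14), and 0 were called with p-toluidine. Cd3d lost its call without vehicle replicate 1 (0.0635), 4 (0.0698) or 5 (0.112), without 120 mg/kg replicate 1 (0.0794), 2 (0.104) or 3 (0.0584), without the narrow arrays (0.128) and with median centring (0.0549). Among 7 stellate cell and fibroblast markers Reln fell with both chemicals, by 0.37 with DMPT (adjusted p = 0.0179, lost without vehicle replicate 2 at 0.0761 or 3 at 0.0505, without 120 mg/kg replicate 2 at 0.0557, and without the narrow arrays at 0.115) and by 0.49 with p-toluidine. For the 4 endothelial markers measured, 0 were called with either chemical. The hepatocyte marker list summed to between 15.40 and 15.46 at 120 mg/kg of DMPT, against 15.43 to 15.50 in vehicle, and to between 15.17 and 15.23 at 120 mg/kg of p-toluidine, against 15.22 to 15.30. That sum is weighted towards the brightest markers, such as albumin. By gene, 2 of the 8 hepatocyte markers fell with each chemical, where 7.43% of all genes fell with DMPT and 6.91% with p-toluidine. Asgr1 fell with both, and its DMPT call was lost without the narrow arrays (limma, adjusted p = 0.0604). The other hepatocyte marker lower with DMPT was Serpina1, which is also counted above among the other positive acute phase genes that fell. Albumin, named above as a negative acute phase protein, is a hepatocyte marker here too, so these markers are not separate from the acute phase genes. Epcam, a marker of bile duct cells, rose by 1.47 ± 0.13 with DMPT and 1.84 ± 0.12 with p-toluidine, while the other 4 bile duct markers measured did not pass. Beta-actin probe sets for the 3′ and 5′ ends of its transcript, a gauge of RNA integrity, differed by 1.28 ± 0.08 at 120 mg/kg of DMPT, against 1.48 ± 0.15 in vehicle (p = 0.0159 by an exact two-sided permutation test, 0.238 when adjusted across 20 such tests), and 1.52 ± 0.09 at 120 mg/kg of p-toluidine, against 1.80 ± 0.15 (exact p = 0.0238, 0.238 when adjusted). With that difference as a covariate A2m and Apcs still passed at 120 mg/kg of both chemicals.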

How the data were processed

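Liver RNA of 60 samples was measured on one-colour arrays. The authors deposited log2 expression values per probe set. RMA is named without a version or settings per the submitters' processing notes, and the log2 scale was read from that and from the range of the values. RMA corrects background, normalizes between arrays and summarises probes, which can compress large changes.

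Of 31099 probe sets, 57 controls were left out. Of the 31042 tested, 20826 carried 1 symbol, 436 several and 9780 none. In each chemical, limma 3.58.1 (R 4.3.3) fitted 6 group means to 30 arrays, and a fit of all 60 gave the differences between chemicals. Trends ran over dose rank. P-values were adjusted over all probe sets by Benjamini and Hochberg, with calls at 0.05, and intervals are 95%. The number of arrays limits precision. On simulated data for 120 mg/kg of DMPT with 31042 probe sets, 77 of 100 changes of 0.5 log2 and 99 of 100 of 1 log2 were recovered.

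Alternatives changed the normalization, probe-set filter, moderation (robust and with an intensity trend), array weights, covariates, summary over probe sets and groups fitted, and left out arrays. Genes named are the 10 members, listed genes with the largest called changes, regulators, and the 5 nearest to A2m. Members and lists were chosen with earlier results of these data known.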

Additional observations from a re-analysis of the deposited data

Results flagged for a closer look

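Of 120 groups of 5 arrays examined, one for each gene and group, 12 held an array that stood apart from its 4 companions by Dixon's ratio (above 0.71). Chance flags about 1 in 20 such groups.

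A2m in p-toluidine vehicle replicate 5 was at 7.54, against 5.03 to 5.31 on the other vehicle arrays. Orm1 at 120 mg/kg of p-toluidine replicate 5 was at 10.21, against 9.37 to 9.47 on the others. Cp stood apart in 4 groups: replicate 5 at 120 mg/kg of p-toluidine (10.78, others 11.22 to 11.28), replicate 5 at 6 mg/kg of p-toluidine (11.21, others 11.41 to 11.47), replicate 5 at 6 mg/kg of DMPT (11.29, others 11.89 to 12.01) and replicate 4 at 120 mg/kg of DMPT (11.93, others 11.80 to 11.83).

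Fga stood apart in replicate 3 at 60 mg/kg of DMPT, a narrow array (12.72, others 12.56 to 12.60), and in replicate 4 at 6 mg/kg of p-toluidine (12.22, others up to 12.39). Fgg did so in replicate 1 at 120 mg/kg of DMPT (12.50, others 12.64 to 12.69) and in replicate 5 at 20 mg/kg of DMPT (12.69, others 12.72 to 12.73). Apcs was at 11.61 in replicate 1 at 1 mg/kg of DMPT (others 11.46 to 11.50), and Hp at 12.41 in replicate 5 at 20 mg/kg of p-toluidine (others 12.51 to 12.55).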

How the results depend on the processing

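A2m and Apcs at 120 mg/kg of both chemicals, and Apcs at 60 mg/kg of both, kept their direction and call under each alternative run. The number of members called at 20 mg/kg of DMPT was 0 with arrays centred on their medians or with the beta-actin covariate, and at 60 mg/kg 1 without the narrow arrays or with robust moderation. The count at 120 mg/kg of DMPT was 5 with median centring, with dim probe sets left out or with array weights (A2m and Apcs with Crp, Fga and Fgb), and 4 with robust moderation (with Fga and Fgb). With 120 mg/kg of p-toluidine it was 2 in a fit of only the 2 groups. Crp and Fgb were added at that p-toluidine dose with dim probe sets left out or with robust moderation. Crp alone was added with median centring or as the mean of its probe sets, Fgb alone with array weights, and Lbp alone with the beta-actin covariate. Quantile normalization added Crp there and lost Hp. The cause was not tested.

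Leaving out each array in turn gave 0 to 1 members at 20, 1 to 2 at 60 and 2 to 3 at 120 mg/kg of DMPT, 1 to 2 at 60 mg/kg of p-toluidine (the addition being a rise of Orm1 without replicate 2) and 3 to 5 at 120 mg/kg, and 2 to 3 for the DMPT and 4 to 6 for the p-toluidine trend. Changes of uncalled genes turned sign over those fits at 120 mg/kg of DMPT for Orm1 (−0.015 to 0.16), Il6st (−0.091 to 0.092), Stat3 (−0.28 to 0.048) and Socs3 (−0.046 to 0.13), and at 120 mg/kg of p-toluidine for Orm1 (−0.14 to 0.10). Differences between chemicals did so for A2m (−0.20 to 0.58), Crp (−0.18 to 0.0029), Fgb (−0.015 to 0.037), Fgg (−0.043 to 0.0041) and Orm1 (−0.035 to 0.21).

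Other settings turned the sign of uncalled values near 0. With 120 mg/kg of DMPT, Socs3 was at −0.0017 with quantile normalization and −0.021 with the beta-actin covariate, Il6st at −0.014 with median centring, Stat3 at 0.17 without the narrow arrays, Cp at 0.051 with the covariate and Fgb at 0.014 as the mean of its probe sets. With 120 mg/kg of p-toluidine, Orm1 was at −0.037 with array weights and −0.13 with the covariate, Cp at 0.0090 and Cebpd at −0.010 with the covariate. The Fgb difference between chemicals was −0.029 with quantile normalization, −0.0062 with median centring, −0.015 without the narrow arrays, −0.0099 with array weights and −0.0020 with the covariate.

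The replicate numbers are shared by the groups, and the labels do not say whether they pair the samples. Same-numbered arrays had a mean correlation of deviations of −0.001 for DMPT (single pairs −0.39 to 0.42) and −0.004 for p-toluidine (−0.33 to 0.37). Of the arrays, 4 of 30 with DMPT and 2 of 30 with p-toluidine correlated best with their own number. A shared cage or processing batch was not tested. With the replicate block, 5 members were called at 120 mg/kg of p-toluidine, Lbp being the addition (−0.42, adjusted p = 0.0294), and 2 for the DMPT trend, where Fga was lost (0.0539), and 10 other positive acute phase genes fell with DMPT.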
